A study of Arabidopsis thaliana with 4 samples.

Results

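Phenylpropanoid and flavonoid genes of Arabidopsis were followed here, chosen by name: PAL1, C4H, CHS, CHI, F3H, TT7, FLS1, DFR, LDOX and MYB75, that is 10 of 38313 genes with a known span. Plants make lignin precursors, sinapate esters, flavonols and anthocyanins from phenylalanine through 1 branching pathway. Phenylalanine ammonia-lyase and cinnamate 4-hydroxylase open it, chalcone synthase commits carbon to flavonoids, and dihydroflavonol reductase and leucoanthocyanidin dioxygenase lead to anthocyanins. In Arabidopsis, MYB75 (also called PAP1) acts with basic helix-loop-helix and WD40 partners to switch on the late, anthocyanin-forming steps, and sugar is known to induce it.

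The RNA came from anti-Myc immunoprecipitates of nuclear pellets of crosslinked Arabidopsis thaliana plants aged 3 weeks, ecotype Columbia. The 2 control RIP libraries came from wild-type Col-0 plants, which carry no Myc tag, and the 2 CLF RIP libraries from clf-28/Myc-CLF plants, which carry a mutated clf allele and Myc-tagged CURLY LEAF (CLF), the Polycomb protein that methylates histone H3; the labels describe this line as normal in appearance. All plants grew on 1/2 MS medium, with sucrose at 30 g/L, with 16 h of light at 22 °C and 8 h of dark at 18 °C, and the sources used here do not name the promoter that drives Myc-CLF. The comparison asks which RNAs were at a different level in the CLF RIP than in the controls; the deposited tables are named for the opposite groups from the sample labels, the labels were used, and every direction turns if they are wrong.

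The tables give FPKM, fragments scaled by transcript length and library depth, per locus, and the FPKM of 1 fragment was 2.31 times as large in the CLF RIP libraries, whose scaling depth was estimated at 4250000 and 4170000 fragments, against 9970000 and 9540000 fragments in the control RIP. Some loci carry the gene's own identifier, and others are listed under a serial number and were matched to the gene by position. CLF itself was at 25.9 and 27.1 FPKM in the controls, and at 4.24 FPKM in CLF RIP replicate 1 but 25.7 FPKM in replicate 2 (log2 fold change -1.22, SE 0.90, limma adjusted p 0.454). UNE15, the gene of the series title, had no matched locus in any library. The 3 mesophyll markers summed to 2297 and 2283 FPKM in the control RIP and to 888 and 833 FPKM in the CLF RIP. Of the 3, 2 passed the limma threshold as lower, RBCS1A and LHCB1.3, which made up most of each sum. The third, CA1, overlapped, at 35.9 and 35.5 FPKM in the controls and 59.7 and 10.8 FPKM in the CLF RIP. For CA1 the log2 fold change was -0.45 (limma adjusted p 0.776). The 3 root markers summed to 0 to 0.154 FPKM in these libraries labelled as whole plants, and 2 of them were at 0 throughout. The 2 seed markers summed to 0 to 0.336 FPKM. The trichome marker GL2 lay at 4.58 to 5.83 FPKM and the guard cell marker FAMA at 11.1 to 24.0 FPKM. The part of these markers in the results below was not tested, and in bulk RNA fewer cells of a type and less RNA per cell cannot be told apart.

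Of the 10 genes, 9 had a locus in every library and 8 reached at least 1 FPKM in at least 2 libraries and were tested. By limma on log2(FPKM + 1), 0 of the 8 passed a Benjamini-Hochberg adjusted p of 0.05, where 1.36% of the 14799 genes tested did (0.743% higher and 0.622% lower in the CLF RIP), and 0 of the 8 had an unadjusted p under 0.05, where 24.7% of all genes did. Of the 8, 6 lay above and 2 below a log2 fold change of 0, with a median of 0.17 against 0.25 over all genes tested. Of all 14799 genes tested, 9344 lay above 0 and 5455 below, the background for such counts here and below. The groups did not overlap for 2 genes that lay higher (PAL1 and DFR) and 1 that lay lower (F3H) in the CLF RIP. DFR reached 1 FPKM in the CLF RIP alone, so the filter set its side and its lack of overlap. Over all genes tested 40.4% lay higher and 18.9% lower without overlap, 59.4% in all. Averaged over the 4 libraries, PAL1 and MYB75 exceeded 84.2% and 81.0% of the 28608 genes joined in all libraries, CHI exceeded 65.0%, and the other 6 exceeded 46.6% to 52.5%, in a set in which 8093 genes were listed at 0 throughout.

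**Figure D1:**
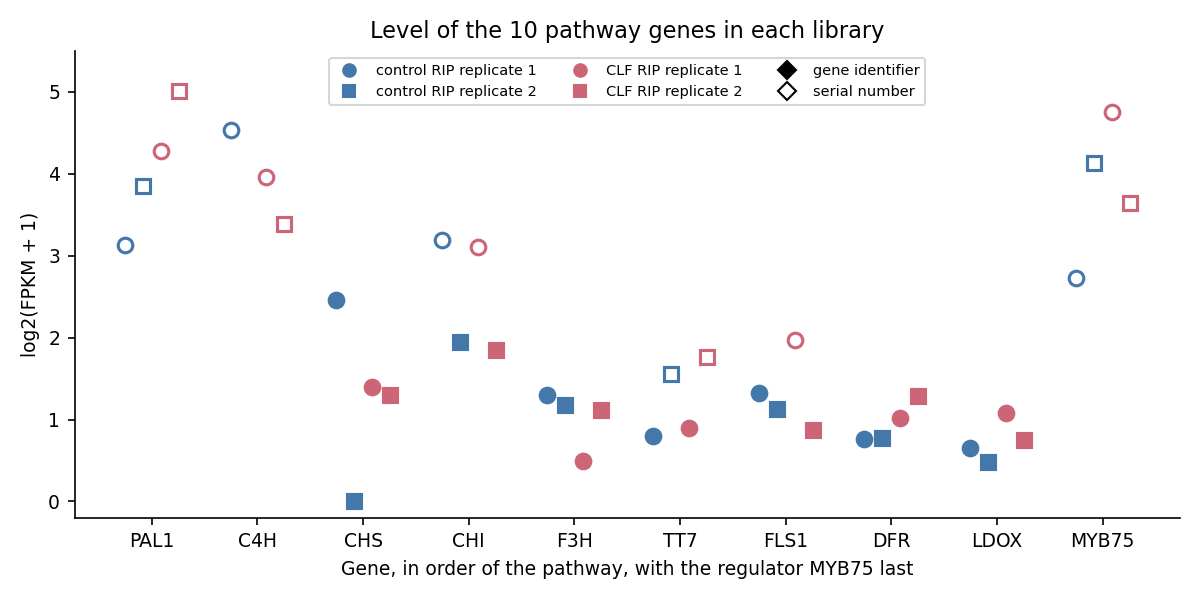
Level of the 10 genes as log2(FPKM + 1) in each library (blue, control RIP; red, CLF RIP; circles, replicate 1; squares, replicate 2). Filled symbols are loci under the gene identifier and open symbols loci under a serial number. PAL1, C4H and MYB75 lie highest, and CHS in control RIP replicate 2 is listed at 0, while C4H has no symbol there.

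PAL1 (AT2G37040), which deaminates phenylalanine to cinnamate, was matched to a locus on chromosome 2 from 15557376 to 15560363 in TAIR10. It was listed at 7.73 and 13.4 FPKM in control libraries, against 18.4 and 31.1 FPKM in CLF RIP libraries. Both CLF RIP libraries lay above both controls, and in each group replicate 2 was the higher library. On the log2(FPKM + 1) scale the fold change was 1.16 (SE 0.43), with a limma adjusted p of 0.221. If the whole span were transcript, these values would be at most 214 and 356 fragments in the controls and at most 217 and 361 in the CLF RIP.

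C4H (AT2G30490) hydroxylates cinnamate in the next step. It was at 22.1 FPKM in control RIP replicate 1 and at 14.6 and 9.45 FPKM in CLF RIP libraries. The matched locus lay on chromosome 2 from 12993663 to 12995770. Control RIP replicate 2 listed no such locus: there the gene lay inside a locus of 8675 bp at 7.54 FPKM, which fell short of the 80% overlap required, so C4H was not tested. The single matched control lay above both CLF RIP libraries, the opposite side from PAL1.

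CHS (AT5G13930), the first enzyme committed to flavonoids, lay on chromosome 5 from 4488688 to 4490264 under its own identifier in all libraries. It was listed at 4.51 and 0 FPKM in control libraries, against 1.64 and 1.46 FPKM in CLF RIP libraries. The controls thus lay on both sides of the CLF RIP libraries, which were close to each other. The values were whole multiples of 1 fragment within 0.01 and stood for 58 and 0 fragments in the controls and for 9 and 8 in the CLF RIP. An exact 0 can be a failed estimate, and in that library the neighbouring AT5G13940 was not listed, with a locus of 10463 bp under a serial number at 14.3 FPKM starting 2 bp inside CHS. Its log2 fold change was 0.12 (SE 0.94) with a limma adjusted p of 0.946. It was -1.11 without control RIP replicate 2 and 1.35 without control RIP replicate 1, so 1 library set its sign, and it turned to -0.024 after median-of-ratios scaling.

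**Figure D2:**
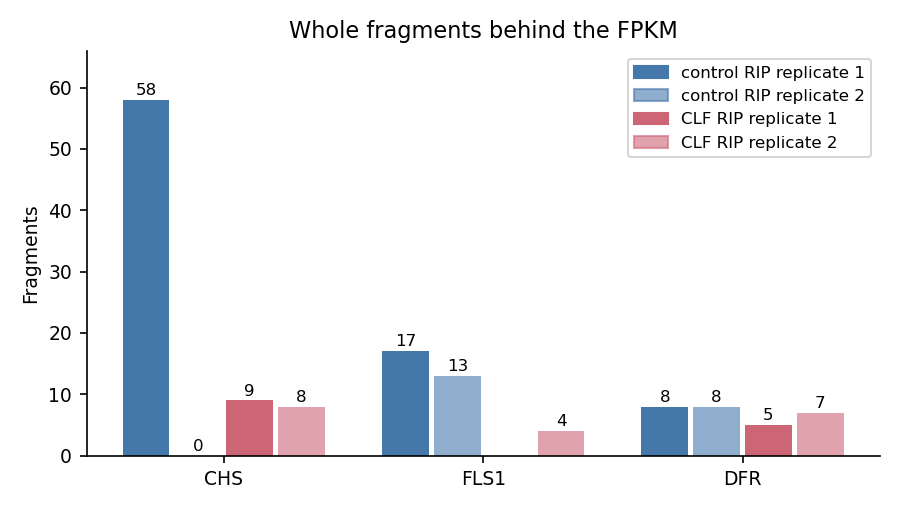
Whole fragments behind the FPKM of CHS, FLS1 and DFR, for loci under the gene identifier (blue, control RIP; red, CLF RIP; paler bars, replicate 2). CHS had 58 fragments in control RIP replicate 1, and its 0 in replicate 2 is a listed 0 that can be a failed estimate. DFR had 5 to 8 in each library. FLS1 has no bar in CLF RIP replicate 1, where it carried a serial number.

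CHI (AT3G55120), also called TT5, closes the chalcone ring to a flavanone. It was at 8.16 and 2.85 FPKM in control libraries, against 7.63 and 2.60 FPKM in CLF RIP libraries, at the same span in all libraries (chromosome 3, 20430114 to 20431470). Replicate 1 was the high library and replicate 2 the low one in both groups, so the groups overlapped. For CHI the log2 fold change was -0.091 (SE 0.69, limma adjusted p 0.945), and it was 0.53 without control RIP replicate 1 and 0.54 without CLF RIP replicate 2.

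F3H (AT3G51240; chromosome 3, 19025192 to 19026872), which hydroxylates the flavanone, was at 1.46 and 1.27 FPKM in control libraries, against 0.408 and 1.16 FPKM in CLF RIP libraries. Its lowest library was CLF RIP replicate 1, and the groups did not overlap, by a small margin. Its values stood for at most 21.4 and 17.8 fragments in the controls and at most 2.55 and 7.16 in the CLF RIP. F3H had a log2 fold change of -0.44 (SE 0.29, limma adjusted p 0.415). The noncoding gene AT3G51238 covers 1588 bp of the F3H span and was listed at 0.205 FPKM in control RIP replicate 1 and at 0 in the others. Without stated strandedness, reads of these overlapping genes cannot be told apart, and F3H values were not whole fragments within 0.01.

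TT7 (AT5G07990; chromosome 5, 2560394 to 2563109), the flavonoid 3'-hydroxylase that turns kaempferol-type into quercetin-type precursors, was at 0.736 and 1.94 FPKM in control libraries, against 0.864 and 2.39 FPKM in CLF RIP libraries. Here replicate 2 was the high library in both groups. Its log2 fold change of 0.15 (SE 0.46, limma adjusted p 0.854) became -0.23 without control RIP replicate 1 and -0.0083 after median-of-ratios scaling.

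FLS1 (AT5G08640; chromosome 5, 2803957 to 2805606), the main flavonol synthase, was at 1.51 and 1.19 FPKM in control libraries, against 2.91 and 0.835 FPKM in CLF RIP libraries. The CLF RIP libraries lay on both sides of the controls. The log2 fold change was 0.19 (SE 0.45, limma adjusted p 0.812) and -0.35 without CLF RIP replicate 1. In the 3 libraries with its own identifier, FLS1 stood for 17 and 13 fragments in the controls and 4 in CLF RIP replicate 2, a ratio of 0.618 per unit depth with a 95% interval of 0.158 to 1.75 (exact, counting error only).

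The kind of identifier moved with the level of CHI, TT7 and FLS1, the 3 genes whose identifier differed between libraries. Each was higher wherever it carried a serial number than wherever it carried its own identifier: the lowest serial value was 2.67 times the highest own value for CHI, 2.25 times for TT7 and 1.93 times for FLS1. Within a kind, CHI in the CLF RIP was at 0.935 (serial) and 0.913 (own) of the control, and TT7 at 1.23 (serial) and 1.17 (own), each from 1 library per group. Most genes of mixed kind behaved likewise within a single group, and the part of identifier kind in the results was not tested. Among 2283 genes with 1 control library of each kind, the serial value was higher in 71.1%, with a median ratio of 1.21, and among 2559 such genes in the CLF RIP it was higher in 75.8%, with a median ratio of 1.38. Genes of 1 kind in both libraries of a group had median ratios of 0.969 to 0.997 between replicates.

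**Figure D3:**
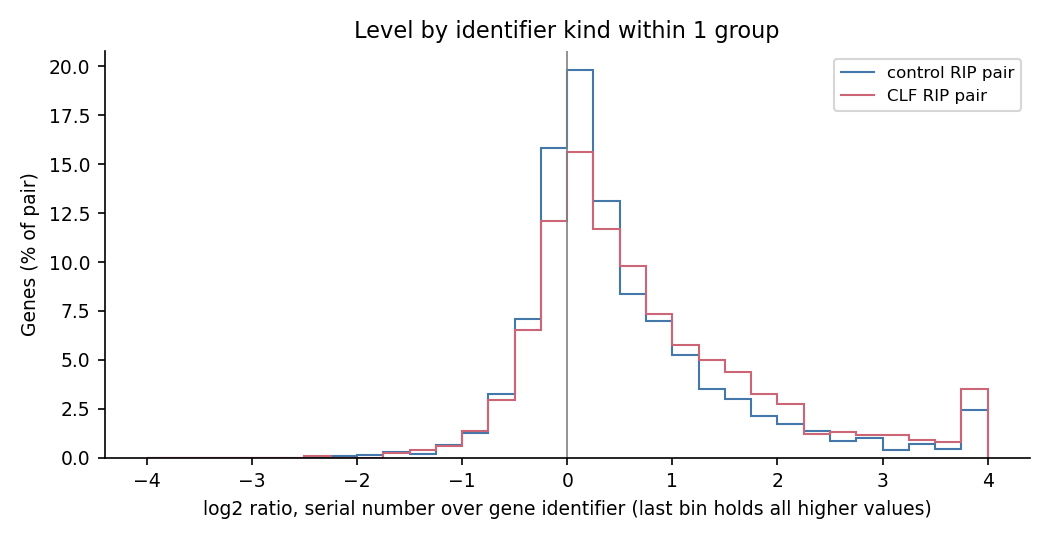
Distribution, over genes with 1 library of each identifier kind in a group, of the log2 ratio of the serial-number value to the gene-identifier value (blue, control RIP pair, 2283 genes; red, CLF RIP pair, 2559 genes), as percent of genes per bin of 0.25, the last bin holding all higher ratios. Both lie mostly to the right of 0, with 71.1% and 75.8% of genes above it.

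DFR (AT5G42800; chromosome 5, 17164141 to 17165918), which reduces dihydroflavonols, was listed at 0.694 and 0.716 FPKM in control libraries, against 1.02 and 1.43 FPKM in CLF RIP libraries. Both CLF RIP libraries lay above both controls. DFR reached 1 FPKM in the CLF RIP alone, so it could enter the test only by being higher there. The log2 fold change was 0.38 (SE 0.20, limma adjusted p 0.324). The values stood for 8 and 8 fragments in the controls and for 5 and 7 in the CLF RIP. The ratio per unit depth was 1.74, with a 95% interval of 0.750 to 3.91 (exact, counting error only). That interval includes 1, so no difference was detected, and it leaves out the spread between libraries.

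LDOX (AT4G22880; chromosome 4, 12004768 to 12006209), which forms the coloured anthocyanidin, was lower still, at 0.576 and 0.396 FPKM in control libraries, against 1.12 and 0.678 FPKM in CLF RIP libraries. It missed the minimum level and was not tested. Its values stood for at most 7.09 and 4.68 fragments in the controls and at most 5.85 and 3.50 in the CLF RIP, so both groups rested on a handful of fragments, although the CLF RIP libraries were listed higher.

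MYB75 (AT1G56650), the activator of the late steps, was matched to a locus under a serial number in every library. These loci started at 21233595 on chromosome 1 and ended at 21235137 to 21235194. MYB75 was at 5.61 and 16.5 FPKM in control libraries, against 26.0 and 11.5 FPKM in CLF RIP libraries. The highest library was CLF RIP replicate 1 and the lowest control RIP replicate 1, and the other libraries lay in between in the reverse order. MYB75 had a log2 fold change of 0.77 (SE 0.70, limma adjusted p 0.533), which was 0.065 without control RIP replicate 1 and 0.21 without CLF RIP replicate 1, against 1.47 and 1.32 without the other library of each group. MYB75 has close relatives (MYB90, MYB113 and MYB114), so reads may be shared among them.

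In order of mean level on the log2(FPKM + 1) scale, the 8 tested genes ran in the control RIP from PAL1 (3.49), MYB75 (3.43) and CHI (2.57) to F3H (1.24), CHS (1.23), FLS1 (1.23), TT7 (1.18) and DFR (0.77). In the CLF RIP they ran from PAL1 (4.64), MYB75 (4.20) and CHI (2.48) to FLS1 (1.42), CHS (1.35), TT7 (1.33), DFR (1.15) and F3H (0.80). In both groups the libraries of PAL1 and MYB75 overlapped, and so did those of CHS, FLS1 and TT7. The order of those neighbours is thus not settled, and differences between genes were not tested.

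**Figure D4:**
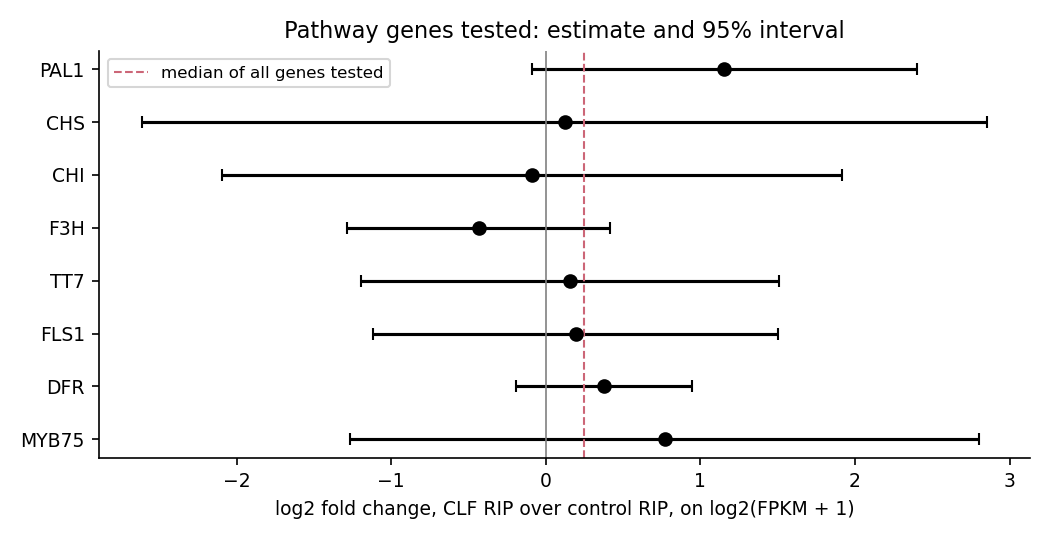
Log2 fold change of the CLF RIP over the control RIP, on the log2(FPKM + 1) scale, with the 95% interval from limma, for the 8 genes tested (2 libraries per group). All intervals include 0, the grey line, and the dashed line marks the median of all genes tested, 0.25.

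The rest of the pathway was described by 6 lists of 63 genes, of which 56 were joined and 41 tested. By limma 0 of the 41 passed the threshold, where 1.36% of all genes tested did. An unadjusted limma p under 0.05 was found for 17 of the 41, against 24.7% of all genes. The 17 include SCPL10, MYB90 and GL3, described below, which each reached 1 FPKM in 1 group alone, so the filter set their side. The median log2 fold change of the 41 was 0.33, against 0.25. Among other entry enzymes, 4CL1, a 4-coumarate:CoA ligase, was at 6.48 and 6.24 FPKM in control libraries, against 18.4 and 23.2 FPKM in CLF RIP libraries, both CLF RIP libraries being higher (log2 fold change 1.56, SE 0.23, adjusted p 0.0900). Its relative 4CL5 was at 14.2 and 14.0 FPKM against 25.3 and 21.7 FPKM. The list split, with 3 of 7 tested genes above and 4 below 0. PAL2 and PAL3, relatives of PAL1 named after their values were seen, were among those below 0, without overlap. PAL3 carried its own identifier in its lowest library alone. Of the 7 tested, 3 lay higher and 2 lower without overlap, where 40.4% and 18.9% of all genes tested did. PAL4, likewise named after its values were seen, was below the minimum level and not tested, and was also listed lower in the CLF RIP.

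In the monolignol branch, which leads to lignin, 5 of 8 tested genes lay above and 3 below 0. CAD5, an alcohol dehydrogenase of its last step, was at 7.14 and 5.40 FPKM in the controls and at 36.3 and 26.4 FPKM in CLF RIP libraries, without overlap (log2 fold change 2.15, SE 0.28, limma adjusted p 0.0846). CSE, caffeoyl shikimate esterase, was at 3.75 and 2.95 FPKM against 6.95 and 8.50 FPKM, with a serial number in its highest library alone. The 3 genes below 0, named after their values were seen, were CAD4, OMT1 and CCR1, all without overlap. Of the 8 tested, 4 lay higher and 3 lower without overlap, where 40.4% and 18.9% of all genes tested did. CAD4, a relative of CAD5, was at 5.40 and 7.08 FPKM against 3.32 and 1.73 FPKM. It carried its own identifier in its lowest library alone. Of the sinapate ester genes 3 of 4 were tested: UGT84A2, a sinapate glucosyltransferase, was at 1.15 and 1.78 FPKM against 2.70 and 3.00 FPKM. REF1, an aldehyde dehydrogenase, overlapped at 80.006 and 128 FPKM against 183 and 96.0 FPKM.

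Of 15 further flavonoid genes for synthesis, decoration and transport, 7 were tested, with 5 above and 2 below 0, and 2 were listed at 0 in all libraries. UGT78D1, a flavonol rhamnosyltransferase, was at 2.39 and 2.70 FPKM in control libraries, against 5.06 and 6.74 FPKM in CLF RIP libraries (log2 fold change 0.95, limma adjusted p 0.140). SCPL10 was at 2.01 and 3.19 FPKM against 0.715 and 0.181 FPKM, with its own identifier in the lowest library and a serial number in the others (adjusted p 0.144). It reached 1 FPKM in the controls alone, so it could enter the test only by being lower in the CLF RIP. The glutathione transferase gene TT19, chosen after seeing its values, was at 0 in replicate 2 of both groups and stood for 8 fragments in control RIP replicate 1 and 5 in CLF RIP replicate 1.

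Of 12 activators 7 were tested, with 4 above and 3 below 0. Of the 4 above 0, MYB90, MYB114 and GL3 reached 1 FPKM in the CLF RIP alone and could enter the test only by being higher there, so the filter set the side of 3 of the 4. MYB90, the nearest relative of MYB75, was at 0.256 and 0.132 FPKM in control libraries, against 3.45 and 7.47 FPKM in CLF RIP libraries (log2 fold change 2.36, SE 0.39, limma adjusted p 0.1004). GL3, a helix-loop-helix partner of these factors, was at 0.0580 and 0 FPKM against 15.0 and 2.51 FPKM (adjusted p 0.173). Both carried their own identifier in the controls and a serial number in the CLF RIP, so identifier kind and group cannot be told apart for them.

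Of 14 repressors and turnover factors 10 were joined and 9 tested, 4 above and 5 below 0. KFB50 and KFB01 encode F-box proteins that mark PAL enzymes for degradation, and they lay in opposite directions. KFB50 was at 74.998 and 70.9 FPKM in control libraries, against 155 and 157 FPKM in CLF RIP libraries (log2 fold change 1.09, SE 0.11, limma adjusted p 0.0532). KFB01 was at 67.2 and 63.7 FPKM against 35.2 and 28.6 FPKM (log2 fold change -1.02, SE 0.19, adjusted p 0.110). The groups did not overlap for either gene, where 59.4% of all genes tested did not overlap. KFB50 passed with a limma adjusted p of 0.0391 at a reciprocal overlap of 0.95, and KFB01 with 0.0186 when fitted with only the 2462 genes that kept their own identifier throughout, of which 19.8% passed.

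**Figure D5:**
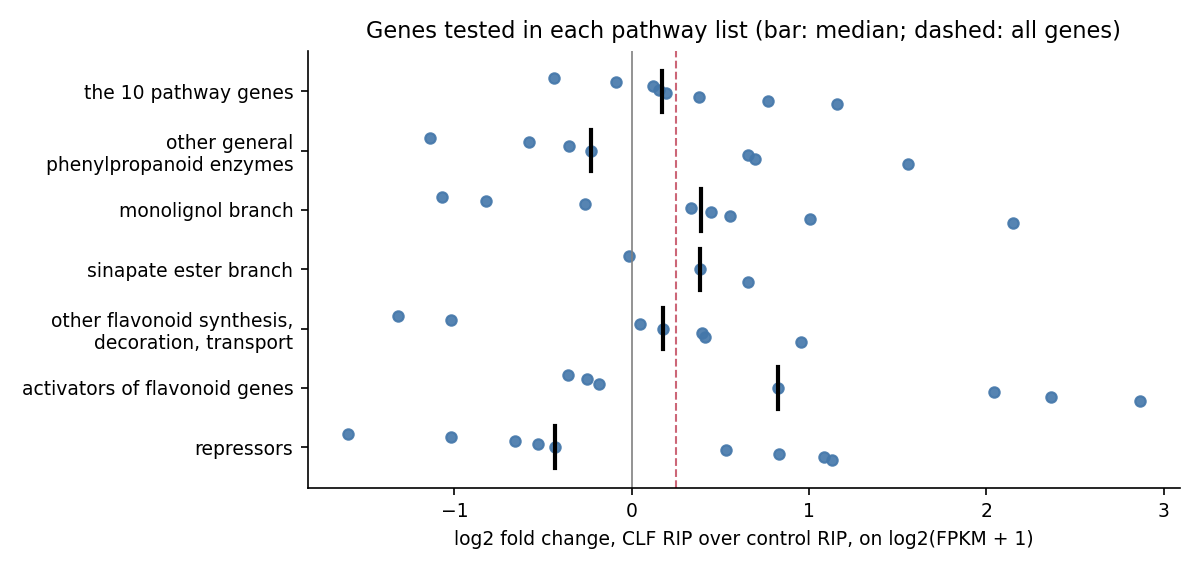
Log2 fold change of the CLF RIP over the control RIP on the log2(FPKM + 1) scale for each tested gene (points) of the 10 pathway genes and of the 6 other lists, with the list median (black bar) and the median of all genes tested (dashed line, 0.25). Every list has genes on both sides of 0.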

How the data were processed

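The deposited values are FPKM, 1 per locus and library. The submitters' processing notes name TopHat2 2.0.10, Trimmomatic and the TAIR10 build; which program made the FPKM values is not given in the sources consulted. Coordinates are those of the tables, counted from 1.

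Genes were joined by identifier or, where a library listed only a serial number, by a locus of at least 300 bp with a reciprocal overlap of at least 80% with the gene span, taken from the tables or from RefSeq TAIR10.1. Left out were 211 genes with a serial-number value at or above 1 read on 75 bp. Genes reaching 1 FPKM in 2 or more libraries entered limma 3.58.1 on log2(FPKM + 1) (trend and robust prior) in R 4.3.3, Benjamini-Hochberg adjusted over all genes; folds on this scale understate changes of low genes. The labels do not say whether replicate libraries are separate plantings, so p-values may measure technical spread. The scaling depth was fitted so that 92.0% to 94.2% of low values of serial loci of 350 to 900 bp were whole reads within 0.1. Values under the gene's identifier in at least 3 libraries were read as whole fragments where 1 solution within 0.01 existed below the bound set by the span. Intervals cover counting error only.

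The members and lists were chosen with earlier results of these data known. Genes named by rule were the members, CLF, UNE15, the 2 genes per list with the smallest p (none passed), and the 5 genes nearest to CHS. Outside this rule, PAL2, PAL3, PAL4, CAD4, OMT1, CCR1, TT19, MYB114 and LBD38 were named after their values were seen. Tables were handled in pandas 2.3.3 and numpy 2.4.6 under Python 3.11.15, with exact intervals from scipy 1.17.1 and plots from matplotlib 3.10.9. No gene sequences were used here.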

Additional observations from a re-analysis of the deposited data

How the results depend on the processing

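None of the 8 tested pathway genes passed the threshold under any of 15 alternatives, with limma adjusted p from 0.194 to 0.994. Of 103 such values 92 kept their direction. CHS was 1.28 at a pseudocount of 0.1 and turned to -0.024 (median-of-ratios scaling), -0.073 (pseudocount 5) and -0.083 (rescaled without the structural RNA genes), TT7 to -0.0083 (median-of-ratios) and -0.10 (structural RNA left out), and FLS1 to -0.049 (structural RNA left out). When each library was left out in turn, log2 fold changes ranged from 0.79 to 1.52 for PAL1, -1.11 to 1.35 for CHS, -0.72 to 0.54 for CHI, -0.75 to -0.13 for F3H, -0.35 to 0.74 for FLS1 and 0.065 to 1.47 for MYB75. TT7 (-0.23 to 0.58) and DFR (0.37 to 0.39) missed the minimum level in 2 of these 4 fits each (TT7 without replicate 2 of either group, DFR without either CLF RIP library), so their ranges are incomplete. REF1 turned to -0.044 with structural RNA left out and ranged from -0.075 to 0.85 without 1 library. Among other pathway genes, 2 of the 9 tested with own identifiers alone passed (KFB01 and LBD38, both lower), where 19.8% of all 2462 such genes did. LBD38 was named after its values were seen. At a reciprocal overlap of 0.95, 1 of the 25 tested passed (KFB50), where 182 of all 9657 genes did.

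Over all genes, 202 passed (110 higher, 92 lower). Quantile normalization gave 94 and 115, median-of-ratios 93 and 134, and leaving structural RNA out 64 and 117, and the median of all genes moved from 0.25 to 0.02, 0.01 and -0.12. The count was 29 with at least 1 FPKM in every library, 7 without a filter, 67 without the trend and robust prior, 85 at a pseudocount of 5, 488 with own identifiers alone and 0 to 5 without 1 library. With the replicate number as a block it was 0 (limma, 2713 at an unadjusted p under 0.05). Replicate 1 deviations of the groups correlated at 0.02, and the libraries share only a number. The cause of these shifts was not tested. Genes without a value under a stricter filter or overlap have none here. DFR and LDOX rest on under 10 fragments in every library, and CHS and F3H on under 10 in both CLF RIP libraries. FLS1 in CLF RIP replicate 2 and TT7 in CLF RIP replicate 1 also rest on under 10.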

Other observations

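The 5 tested genes whose centred log2(FPKM + 1) profile over the 4 libraries lay nearest to that of CHS, outside all lists, were AT1G63810, CDKC2, AT5G62580, AT1G27660 and AT5G22930, at summed absolute distances of 0.42 to 0.70. CDKC2, a cyclin-dependent kinase gene, was at 24.5 and 4.27 FPKM in control libraries, against 12.0 and 8.36 FPKM in CLF RIP libraries. AT5G62580 and AT5G22930 were listed at 0 in control RIP replicate 2, as CHS was. This likeness rests on 4 libraries and is a description.

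Short loci under serial numbers lay inside the listed locus of 7 of the 10 genes (PAL1, C4H, CHI, TT7, FLS1, DFR and MYB75). There were 21 such loci over the 4 libraries, and 10 of them spanned 75 bp, each at the value of 1 read. They were not added to the genes' own values.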
